A study of Mus musculus with 3 samples.

Results

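Transcripts of 10 mouse genes for the assembly and export of hepatic triglyceride were followed in hepatocytes across a high-fat diet and an antibody treatment. The genes were the lipins Lpin1, Lpin2 and Lpin3, the acyltransferases Gpam, Agpat2, Agpat3, Dgat1 and Dgat2, the lipid transfer protein gene Mttp, and Pnpla3, a lipid droplet gene. All spots whose gene name on the array equalled 1 of these symbols were taken, which gave 13 probes of 39429 and 10 genes of 31870 symbols. The set was chosen by its signals on these same arrays, divided by the array's 75th percentile, in the 3 groups, so levels and differences of the 10 genes are descriptions.

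RNA came from male wild-type C57BL/6 mice that were 22 weeks old at the end. All groups began their diet at 6 weeks of age, stayed on it for 16 weeks, were fasted overnight, and had hepatocytes released from the liver with collagenase. The standard-diet group has no injection in its labels. The HFD-IgG group ate a high-fat diet and, after 10 weeks of it, received intraperitoneal control IgG 2 times a week for 6 weeks. The anti-VLA-4 group ate the same diet and on the same schedule received an antibody that blocks VLA-4, an integrin of leukocytes. Each group was measured on 1 single-colour array, and the labels do not give the number of mice behind it. There is therefore no replicate check and no p-value, and the number of arrays limits the precision. Each probe of the 10 genes was 1 spot, so its only error is the scanner's own, about 10.0% of a bright signal, or 0.20 on the log2 scale for a difference between arrays. The standard-diet and HFD-IgG arrays were on 1 slide and the anti-VLA-4 array on another, so the antibody and the slide cannot be told apart, and neither can diet and injection.

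Triglyceride is built on glycerol 3-phosphate. Gpam, the mitochondrial glycerol-3-phosphate acyltransferase, adds the first acyl chain and the Agpat enzymes add the next, giving phosphatidic acid. Lipins remove its phosphate to give diacylglycerol, and Dgat1 and Dgat2 add the last chain. Lpin1 also acts in the nucleus as a transcriptional coactivator and is known to rise in the fasted liver. Mttp, the microsomal triglyceride transfer protein, loads triglyceride onto apolipoprotein B in the making of very low density lipoprotein (VLDL), while Pnpla3 is a droplet protein induced by feeding and insulin.

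A level below is the background-subtracted signal of a probe divided by the 75th percentile of its array, so that 1 is the level of that percentile. Levels of different probes were not set against each other. Probes behind the clearest differences are shown first, because some genes have a pair of probes that did not measure alike, and because differences over the whole array moved with the purines (A and G) in a probe. The first 30 bases of each 60-base probe follow in the files' orientation, with runs of 4 or more purines in capitals.
Lpin1, main probe: aggtctcatgtggtccacatagttcacagg
Lpin1, other probe: attatccatgaatGAGGcctaatgacagtg
Lpin2: agcAGAAGAAcaaatgcacagttcatgtct
Mttp: ttAAGAtgtttgtAAAGAGcagtGGAGAAc
Pnpla3, main probe: gcaaactagtGGAAcagcAGAAGGAttgaa
Pnpla3, other probe: tatccagtggctacaatgggcgacatccca
The main probe of a gene is the 1 with the highest mean signal. The files place the main Lpin1 probe at chr12:16543695-16543754 on the minus strand of build mm9 and the other at chr12:16542515-16542574, farther toward the 3′ end of the same transcript. Purines made up 50% of the main and 55% of the other Lpin1 probe, 60% of the Lpin2 probe (chr17:71596935-71596994, plus strand) and 58.3% of the Mttp probe (chr3:137753868-137753927, minus strand). They made up 63.3% of the main Pnpla3 probe (chr15:84019823-84019882, plus strand) and 48.3% of the other (chr15:84016440-84016499). The Lpin3 probe lies at chr2:160731469-160731528 (plus strand), and these probes are on the minus strand: Gpam at chr19:55143274-55143333 and chr19:55144289-55144348, Agpat2 at chr2:26449107-26449166, Agpat3 at chr10:77736356-77736415 and Dgat1 at chr15:76333128-76333274, a span of 147 bases for a 60-base probe. Whether a probe lies in coding sequence or in an untranslated region was not determined here.

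Lpin1 had the largest difference of the 10 genes among those measured on both diets, and it was lower on the high-fat diet. Its main probe read 5.88 on standard diet, 0.693 with HFD-IgG and 1.04 with anti-VLA-4. The HFD-IgG level was 8.48-fold lower than on standard diet (log2 difference -3.08, scanner error 0.20), and the anti-VLA-4 level was 5.64-fold lower (-2.49, scanner error 0.20). Between the high-fat arrays Lpin1 was 1.51-fold higher with the antibody (0.59, scanner error 0.20), a gap beyond 2 scanner errors. Lpin1 had the 8th lowest difference of HFD-IgG over standard diet among 11820 genes. These carry a RefSeq-style symbol and were well above background on all 3 arrays. Of all genes given a fold in that comparison, with or without such a symbol, 0.0685% lay lower.

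The other Lpin1 probe was also highest on standard diet. It read 0.0903 on standard diet, 0.0135 with HFD-IgG, where it was not well above background, and 0.0321 with anti-VLA-4. A fold against a spot that is not well above background is a lower bound, taken against the lowest signal of that array that was well above background or the spot's own, whichever was higher. On that scale the HFD-IgG level was at least 2.86-fold lower than on standard diet, and the order of the high-fat arrays could not be told. The anti-VLA-4 level was 2.81-fold lower (-1.49, scanner error 0.30), against 5.64-fold by the main probe.

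Lpin2, the lipin typical of liver, was lower in the same order but by less. It read 4.04 on standard diet, 2.20 with HFD-IgG and 2.68 with anti-VLA-4. That was 1.84-fold lower with HFD-IgG (-0.88, scanner error 0.20) and 1.51-fold lower with anti-VLA-4, and the gap between the high-fat arrays (0.29) was beyond 1 scanner error but not 2. Lpin3, another phosphatase of the family, read 0.713, 0.462 and 0.563 in the same order, a difference of -0.62 for HFD-IgG over standard diet. All 3 lipins were thus highest on standard diet and lowest with HFD-IgG.

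**Figure D1:**
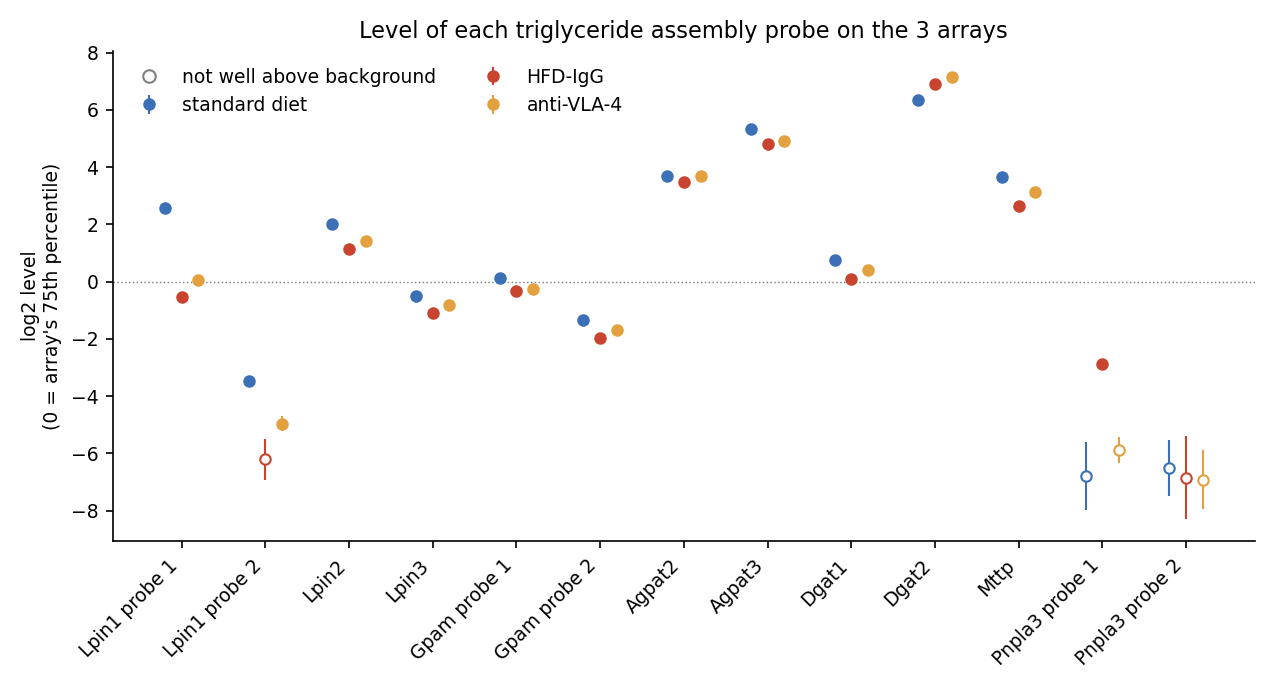
Log2 level of the 13 probes (vertical axis, 0 being the 75th percentile of the array) on the standard-diet (blue), HFD-IgG (red) and anti-VLA-4 (yellow) arrays, 1 spot each, with the scanner error as bars and open circles for spots not well above background. Lpin1 stands far lower on both high-fat arrays than on standard diet, Dgat2 is higher on them, and Pnpla3 is well above background with HFD-IgG alone.

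The acyltransferases of the first steps stayed under 2-fold in every comparison. Gpam read 1.09 on standard diet, 0.788 with HFD-IgG and 0.840 with anti-VLA-4, which was 1.38-fold lower for HFD-IgG over standard diet. Its other probe read 0.397, 0.255 and 0.307 in the same order, 1.56-fold lower. Between the high-fat arrays the main Gpam probe differed by less than the scanner error (0.09) and the other by slightly more (0.27, scanner error 0.21).

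Agpat2, an acyltransferase whose loss causes lipodystrophy, read 12.8 on standard diet, 11.2 with HFD-IgG and 13.0 with anti-VLA-4. Ranked by level, anti-VLA-4, standard diet and HFD-IgG each lay within the scanner error of the next, while anti-VLA-4 and HFD-IgG, the highest and the lowest, were 0.22 apart, just beyond the scanner error of 0.20. The sign of the smallest difference, 0.02 for anti-VLA-4 over standard diet, held in 6 of 9 other processings. Those 6 include keeping outlier spots, probe means and the deposited table, none of which could change the Agpat2 value. Agpat3, which also acylates lysophosphatidic acid, read 39.8, 27.7 and 29.9. It was 1.43-fold lower with HFD-IgG than on standard diet (-0.52), and the high-fat arrays were within the scanner error of each other (0.11).

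The final acyltransferases went opposite ways on the high-fat diet. Dgat1 read 1.67 on standard diet, 1.07 with HFD-IgG and 1.33 with anti-VLA-4, so that HFD-IgG was 1.56-fold lower than standard diet (-0.64, scanner error 0.20). Dgat2, an enzyme unrelated in sequence that esterifies newly made fatty acids, read 81.0, 118.2 and 141.0 in the same order. It was 1.46-fold higher with HFD-IgG (0.54) and 1.74-fold higher with anti-VLA-4 (0.80, scanner error 0.20), and it alone among the 9 genes measured on all arrays was lowest on standard diet. Its 1.46-fold difference turned to -0.21 under normexp background correction fitted on all spots, a fit distorted on the high-fat arrays as described with the processing. It kept its sign in the 8 other processings. As for Agpat2, keeping outlier spots, probe means and the deposited table could not change it.

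Mttp read 12.5 on standard diet, 6.27 with HFD-IgG and 8.70 with anti-VLA-4. HFD-IgG was 1.99-fold lower than standard diet (-0.99, scanner error 0.20), just inside the 2-fold line. Scaled on the median of probes well above background it crossed that line, at -1.01. The anti-VLA-4 level lay between the others, 1.39-fold above HFD-IgG (0.47) and 1.43-fold below standard diet (-0.52), and both gaps were beyond 2 scanner errors.

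Pnpla3 stood clear of background with HFD-IgG alone. Its main probe read 0.134 there, against 0.00906 on standard diet and 0.0169 with anti-VLA-4, where it was not well above background. HFD-IgG was at least 5.22-fold higher than standard diet, and anti-VLA-4 at least 5.98-fold lower than HFD-IgG, while no fold can be given between anti-VLA-4 and standard diet. The other Pnpla3 probe was not well above background on any array, at 0.0110, 0.00863 and 0.00825. The probe that differed was the richest in purines of the 13, and among genes whose probe held at least 60% purines 44.0% were at least 2-fold higher with HFD-IgG than on standard diet and 43.5% at least 2-fold lower with anti-VLA-4 than with HFD-IgG. With normexp fitted without the spots dimmer than their local background, the Pnpla3 difference of HFD-IgG over standard diet was 0.96, under 2-fold, and that of anti-VLA-4 over HFD-IgG also stayed just under 2-fold. Fitted on all spots, the latter was -0.60. The part of purines and of weak signal in the Pnpla3 result was not tested.

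**Figure D2:**
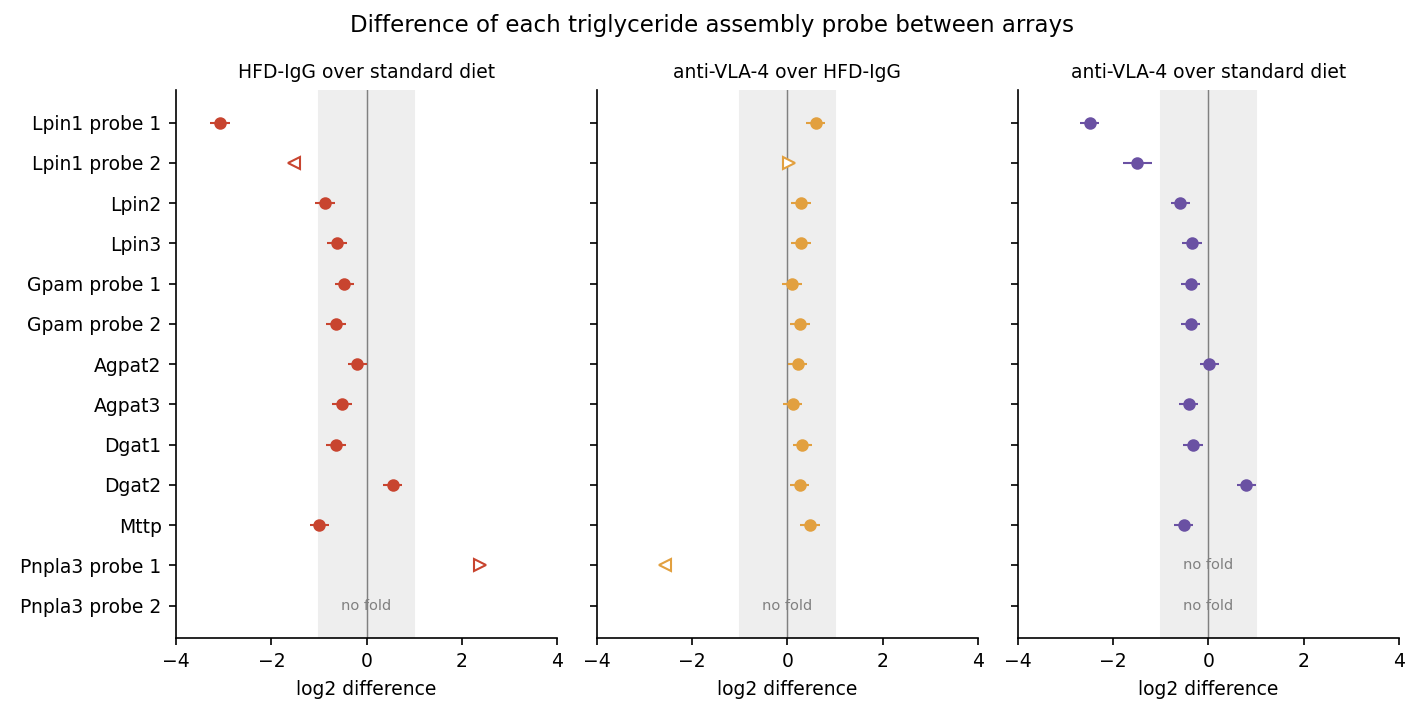
Log2 difference (horizontal axis) of each probe for HFD-IgG over standard diet, anti-VLA-4 over HFD-IgG and anti-VLA-4 over standard diet, with the scanner error as bars, triangles for lower bounds that point away from 0, and grey shading for differences under 2-fold. Lpin1 lies at -3.08 and Mttp at -0.99 in the left panel, where Dgat2 (0.54) and Pnpla3 are the genes to the right of 0.

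Counted by gene, 1 of 10 was at least 2-fold higher with HFD-IgG than on standard diet (Pnpla3), 1 was at least 2-fold lower (Lpin1) and 8 were in between. Of all 22000 genes compared, 20.4% passed 2-fold upward and 2.41% downward. Of the 8647 bright genes, those whose signal exceeded the 75th percentile in at least 1 of the groups compared, 4.27% did so upward and 1.93% downward. At 1.5-fold 5 of the 10 were lower and 1 higher, beside 7.79% lower and 27.9% higher among all genes. How far the whole array leaned upward depended on the scaling. Of the genes at least 2-fold different, 89.4% were higher as measured here, 47.5% after quantile scaling and 74.8% after cyclic loess. The share was 78.3% when the median level of hepatocyte markers set the scale and 80.3% in the deposited table. In the remaining processings it lay between 88.9% and 91.1%. The share of higher calls also ran with purines, from 7.59% of genes with under 40% purines in the probe to 44.0% with 60% or more. Among genes whose probe lay within 5 percentage points of the main Lpin1 probe's purine content, 2.69% were at least 2-fold lower. The median difference of the 10 genes was -0.57, against 0.04 over all genes and -0.10 over the bright ones, and 8 of 10 were below 0.

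In anti-VLA-4 over HFD-IgG, 0 of the 10 passed 2-fold upward and 1 downward (Pnpla3), beside 1.90% higher and 16.5% lower among all 22587 genes compared, and 0.806% and 1.30% among bright ones. The other 9 genes were all slightly higher with the antibody, from 0.09 for Gpam to 0.59 for Lpin1, and the median of the 10 was 0.27 against -0.07 over all genes and -0.01 over bright ones. Lpin1 was the 1 gene past 1.5-fold higher, a size reached by 7.11% of all genes, with 23.3% that far lower. Of all genes at least 2-fold different here, 10.3% were higher, against 54.4% after quantile scaling, 22.1% after cyclic loess, 26.1% in the authors' deposited table and 31.2% with normexp fitted on all spots. In the remaining processings the share lay between 8.32% and 17.6%. The 9 genes kept their sign in each of 9 other processings, not all of which could change it. Keeping outlier spots could not, as no such spot belonged to these genes. The deposited table holds the same ratio, and probe means act only on genes with a pair of probes. The HFD-IgG array enters both this comparison and that with standard diet, so opposite signs in them are not separate evidence.

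In anti-VLA-4 over standard diet, 9 genes could be compared, 0 were at least 2-fold higher and 1 was lower (Lpin1), beside 7.98% higher and 3.39% lower among all 20333 genes and 3.34% and 1.55% among bright ones. At 1.5-fold Dgat2 was higher and Lpin1 and Lpin2 lower, beside 16.3% higher and 9.42% lower among all genes. The median was -0.37 against 0.00 over all genes and -0.10 over bright ones. Of all genes at least 2-fold different, 70.2% were higher, against 57.3% after quantile scaling and 93.5% with normexp fitted on all spots. In the remaining processings the share lay between 60.4% and 74.0%. Calls in this comparison changed little with purines. At least 2-fold higher were 8.27% of genes below 40% purines and 7.52% at 60% or more, and 3.69% and 3.92% were that much lower. The part of purines in the Lpin1 difference was not tested.

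**Figure D3:**
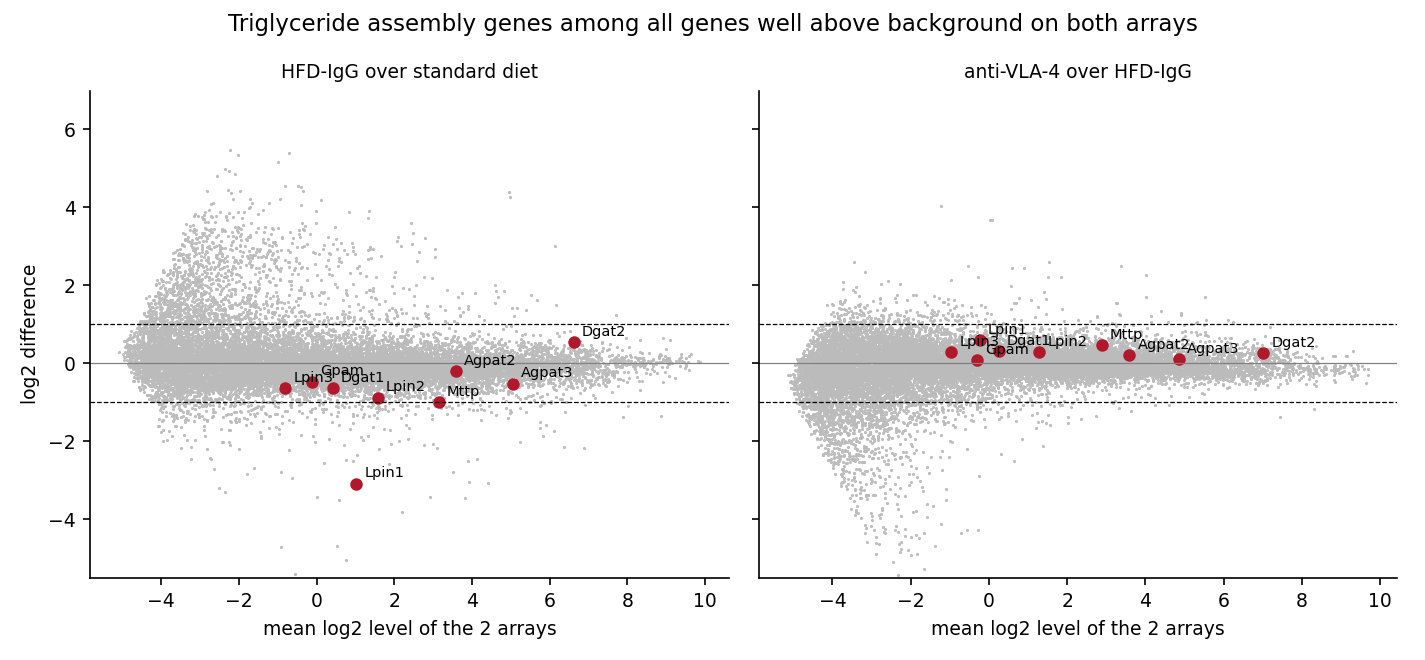
Log2 difference (vertical axis) against mean log2 level (horizontal axis) of every gene well above background on both arrays (grey), with the triglyceride assembly genes in red and dashed lines at 2-fold. Lpin1 lies below nearly all genes of its signal in the left panel, and in the right panel the named genes lie between 0.09 and 0.59.

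The genes whose pair of differences lay nearest to that of Lpin1, by Euclidean distance over HFD-IgG over standard diet and anti-VLA-4 over HFD-IgG among the 11820 genes, were Ppp1r3g, Zbtb16, Epop, Cyp4a12b and Cyp4a12a. Ppp1r3g, a glycogen-targeting subunit of protein phosphatase 1, lay at a distance of 0.46 and read 0.414 on standard diet, 0.0632 with HFD-IgG and 0.114 with anti-VLA-4. Zbtb16, a zinc finger transcription factor known to be induced by glucocorticoids, lay at 0.50 with levels of 5.04, 0.441 and 0.556. Epop, a gene of a Polycomb-associated protein, lay at 0.52 with 0.824, 0.128 and 0.153. The fatty acid omega-hydroxylase genes Cyp4a12b and Cyp4a12a lay at 0.53 and 0.57, and as near-identical copies they can share signal. Likeness over 3 arrays is a description of these arrays.

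Promoters were read for the lipins, which moved the same way, and for Pnpla3. RefSeq's table (GRCm38.p6) held 12 promoters of 8 of the 10 genes. The 250 bases before the transcription start are printed 5′ to 3′ along the gene, with matches to the searched motifs in capitals, for Lpin1 (chr12:16610967-16611216, minus strand), for 1 of 3 listed Lpin2 starts, shown because it alone of them held the E-box (chr17:71183282-71183531, plus strand) and for Pnpla3 (chr15:84167566-84167815, plus strand).
Lpin1: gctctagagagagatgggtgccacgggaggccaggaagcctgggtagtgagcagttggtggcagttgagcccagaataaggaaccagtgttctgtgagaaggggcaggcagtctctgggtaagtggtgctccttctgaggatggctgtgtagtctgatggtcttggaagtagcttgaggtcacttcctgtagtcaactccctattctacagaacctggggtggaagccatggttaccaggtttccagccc
Lpin2: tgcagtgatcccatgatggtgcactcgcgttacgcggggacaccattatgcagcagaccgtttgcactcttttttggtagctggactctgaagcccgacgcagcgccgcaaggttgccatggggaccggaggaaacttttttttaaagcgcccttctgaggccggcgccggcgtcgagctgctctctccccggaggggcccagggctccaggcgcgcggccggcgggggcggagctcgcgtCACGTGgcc
Pnpla3: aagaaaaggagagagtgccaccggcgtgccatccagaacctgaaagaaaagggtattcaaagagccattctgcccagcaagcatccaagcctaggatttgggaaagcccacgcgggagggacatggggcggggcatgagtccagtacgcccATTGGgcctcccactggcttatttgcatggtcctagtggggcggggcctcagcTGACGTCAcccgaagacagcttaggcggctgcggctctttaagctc
The motifs, searched on both strands, were a sterol response element (TCACNCCAC), the E-box CACGTG, a direct repeat bound by nuclear receptors (GGNCAN followed at once by AGGNCA), a glucocorticoid response element (AGAACA, any 3 bases, TGTNCT), the CCAAT box and a cAMP response element (TGACGTCA). The window before the Lpin1 start had none of these letters. Neither Lpin3 window listed held any. The Lpin2 window had CACGTG at 9 to 4 bases before the start, a match that 6.02% of 32851 promoters of the same table carry, and the Pnpla3 window had TGACGTCA at 46 to 39 bases before the start, found in 1.55%. Pnpla3 also had a CCAAT box, at 99 to 95 bases before the start and on the opposite strand, as 33.8% of promoters do. Of the other Lpin2 starts listed, 1 had none of the motifs and 1 had 3 CCAAT boxes.

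Around these 10 genes, 5 lists of related genes were counted in the same way. The counts of every list stand beside the shares of all genes at least 2-fold different. These were 20.4% higher and 2.41% lower for HFD-IgG over standard diet, and 1.90% higher and 16.5% lower for anti-VLA-4 over HFD-IgG. In the list of acyl donors, the glycerol backbone and other acyltransferases, 5 of 18 genes were at least 2-fold higher with HFD-IgG than on standard diet and 0 lower, beside the 20.4% of all genes that were that much higher, and the median was -0.03 against 0.04 over all genes. Gpat2, a glycerol-3-phosphate acyltransferase best known from testis, read 0.0465 on standard diet, 0.367 with HFD-IgG and 0.175 with anti-VLA-4, 7.90-fold higher with HFD-IgG than on standard diet and 2.10-fold lower with anti-VLA-4 than with HFD-IgG. Plpp1, a lipid phosphate phosphatase of the plasma membrane, was 3.35-fold higher with HFD-IgG at 1.92 against 0.574.

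The monoacylglycerol acyltransferases Mogat1 and Mogat2, which make diacylglycerol without a lipin, were 2.55-fold and 2.61-fold higher with HFD-IgG than on standard diet. Mogat1 read 0.482, 1.23 and 0.938 in the standard-diet, HFD-IgG and anti-VLA-4 groups, and Mogat2 read 0.0716, 0.187 and 0.0893. Agpat4 completes the 5, at least 12.2-fold higher, and was named after its values were seen because the rule for named genes takes only those measured on both arrays. With the antibody 2 of 18 were at least 2-fold lower than with HFD-IgG, Gpat2 and Mogat2, and 0 higher, beside 16.5% lower over all genes, and the median was -0.06 against -0.07.

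Among 14 partners and regulators, 1 was at least 2-fold higher with HFD-IgG than on standard diet and 1 lower, with a median of -0.20. Srebf1, the transcription factor gene of lipogenesis, read 0.273 on standard diet, 0.904 with HFD-IgG and 1.03 with anti-VLA-4, 3.31-fold higher with HFD-IgG. Insig2, which holds SREBP precursors in the endoplasmic reticulum, read 64.4, 27.3 and 30.8, 2.36-fold lower. Mlxipl, the carbohydrate-responsive factor ChREBP, was the 1 gene of the list at least 2-fold different between the high-fat arrays, 2.10-fold higher with anti-VLA-4 at 34.8 against 16.6, and Srebf2 was 1.80-fold higher at 0.287 against 0.159.

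Partners that act with lipin 1 itself, named after their values were seen, differed by at most 1.21-fold between HFD-IgG and standard diet. Ctdnep1 and Cnep1r1, the phosphatase pair that activates lipins, read 3.0, 2.53 and 2.64, and 2.08, 1.72 and 1.94, on the standard-diet, HFD-IgG and anti-VLA-4 arrays. Ppargc1a, whose protein works with lipin 1 as a coactivator, read 1.30, 1.17 and 1.09, and Ppara, the nuclear receptor they act on, read 38.5, 44.8 and 48.9.

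Of 11 genes of triglyceride lipolysis, 1 was at least 2-fold higher and 1 lower with HFD-IgG than on standard diet, with a median of 0.20. G0s2, an inhibitor of adipose triglyceride lipase, read 14.2, 41.4 and 27.1 on the 3 arrays and was 2.91-fold higher, while Pnpla2, the gene of that lipase, read 16.8, 7.57 and 6.46 and was 2.22-fold lower. With the antibody 1 of 11 was at least 2-fold lower than with HFD-IgG, Lipe, the hormone-sensitive lipase and also 1 of the adipocyte markers, at 0.0809 against 0.207. Ces1g, a carboxylesterase gene, read 5.15, 7.91 and 15.3 and was 2.98-fold higher with anti-VLA-4 than on standard diet, with the caution that carboxylesterase genes are close copies.

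VLDL assembly held 0 higher and 1 lower of 10 for HFD-IgG over standard diet (median -0.14), and 0 of 10 either way with the antibody (median 0.28). Sort1, a sorting receptor for apolipoprotein B, was the lower 1, at 0.0974 against 0.196. That was 2.01-fold (-1.01, scanner error 0.24), past the 2-fold line by much less than the scanner error. Apob itself read 165 on standard diet, 113 with HFD-IgG and 144 with anti-VLA-4, and Tm6sf2, a factor in the lipidation of VLDL, read 5.50, 3.48 and 4.91, so both stood in the order of Mttp. Apobec1, which edits the Apob transcript, read 0.879, 1.43 and 1.89 and was 2.15-fold higher with anti-VLA-4 than on standard diet.

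The phospholipid branch, which draws on the same diacylglycerol, had 0 higher and 1 lower of 14 for HFD-IgG over standard diet (median -0.31) and 0 either way with the antibody (median 0.17). Chkb, a choline kinase, read 11.7, 5.63 and 7.25, 2.07-fold lower with HFD-IgG. Chka, the other choline kinase, read 2.21, 1.42 and 1.33. Pcyt2, of the ethanolamine branch, read 160, 111 and 129, and Pcyt1a, of the choline branch, read 8.70, 10.0 and 7.05.

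**Figure D4:**
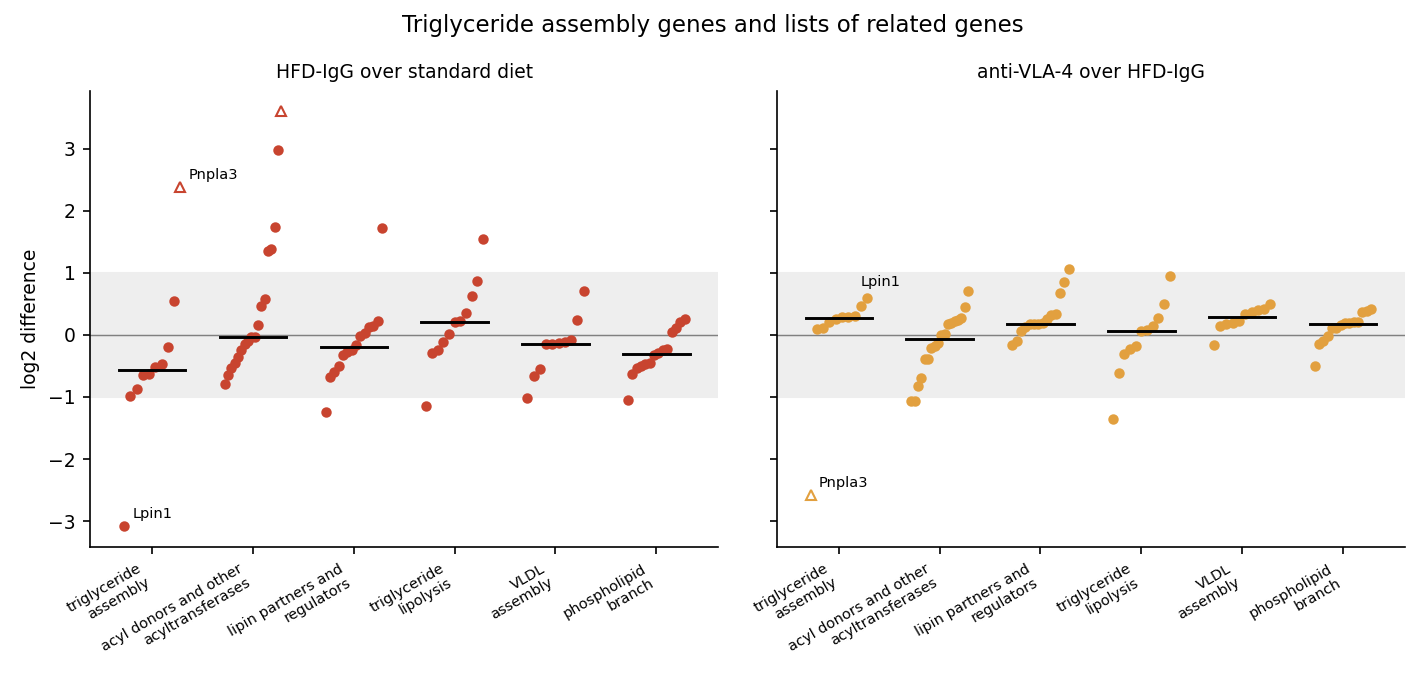
Log2 difference (vertical axis) of the triglyceride assembly genes and of the genes of 5 related lists (horizontal axis) for HFD-IgG over standard diet and anti-VLA-4 over HFD-IgG, with medians as black bars, open triangles for lower bounds and shading under 2-fold. Lpin1 at -3.08 lies below every gene of the related lists in the left panel.

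Markers of other liver cells differed between the arrays beside these results. The 16 hepatocyte markers were well above background on every array, with a summed level of 6379 on standard diet, 6265 with HFD-IgG and 6174 with anti-VLA-4. Very bright probes such as Alb and Serpina1a carry that sum, and single markers differed: 1 of 16, Cps1, was at least 2-fold lower with HFD-IgG than on standard diet (2.20-fold), and Tat was 1.98-fold, Apoa1 1.66-fold and Hnf4a 1.60-fold lower. These 4, named after their values were seen, stood in the order of Lpin2 and Mttp, at 56.0, 25.4 and 41.3 for Cps1. For HFD-IgG over standard diet, 10 of the 16 markers were above 0 and 6 below, with a median difference of 0.05. The 12 Kupffer cell markers summed to 9.87, 65.6 and 50.2, the 10 endothelial markers to 15.2, 57.1 and 34.5, and the 10 stellate markers to 3.41, 32.4 and 16.0. With HFD-IgG 11 of 11 Kupffer cell markers, 8 of 10 endothelial and 9 of 10 stellate markers that could be compared were at least 2-fold higher than on standard diet, and Cd163 was not well above background on any array. With anti-VLA-4 0 of 11 Kupffer cell, 3 of 10 endothelial and 5 of 10 stellate markers were at least 2-fold lower than with HFD-IgG. Over all genes 20.4% were that much higher with HFD-IgG than on standard diet, and 16.5% that much lower with anti-VLA-4 than with HFD-IgG. In RNA of a cell preparation, more cells of a type and more RNA per cell cannot be told apart. The 7 adipocyte markers summed to 123.4, 125.9 and 161.2, nearly all of it Adipor2, and Lep and Plin1 were not well above background on any array. Of 5 adipocyte markers compared, 2 were at least 2-fold higher with HFD-IgG than on standard diet and 0 lower. These were Cfd (23.4-fold) and Adipoq (at least 6.54-fold). With anti-VLA-4, 2 of 4 compared were at least 2-fold lower than with HFD-IgG and 0 higher. The summed level was 0.506, 0.951 and 0.753 for cholangiocyte markers, 28.8, 14.3 and 19.2 for T and NK cell markers, and 66.8, 70.8 and 61.2 for neutrophil and monocyte markers. Of 6 cholangiocyte markers, 4 were at least 2-fold higher with HFD-IgG than on standard diet and 0 lower, beside 20.4% higher over all genes. Between the high-fat arrays, 3 of the 6 were at least 2-fold lower with anti-VLA-4 and 0 higher, beside 16.5% lower over all genes. Most of these folds are lower bounds. Cd4 carries most of the T and NK sum (24.9, 10.8 and 15.6). Of these markers 2 of 5, Cd3g and Ncr1, were at least 2-fold higher with HFD-IgG than on standard diet, with Cd4 lower. Both folds are lower bounds, and the share that much higher was 20.4% over all genes. Csf3r carries the neutrophil sum (66.2, 69.7 and 58.3). Of 6 neutrophil and monocyte markers, 2 were at least 2-fold higher with anti-VLA-4 than with HFD-IgG, S100a8 (4.09-fold) and S100a9 (4.62-fold). Ccr2 was the 1 at least 2-fold lower (2.87-fold). Over all genes 1.90% were that much higher and 16.5% that much lower. With anti-VLA-4, 3 of 6 of these markers were at least 2-fold higher than on standard diet, beside 7.98% of all genes. The part of other cells in the differences of the 10 genes was not tested. Scaled on the median level of the hepatocyte markers of each array, Lpin1 was at -3.33. That scaling shifts every gene by -0.25 for HFD-IgG over standard diet, and is not the median of the markers' own differences (0.05).

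**Figure D5:**
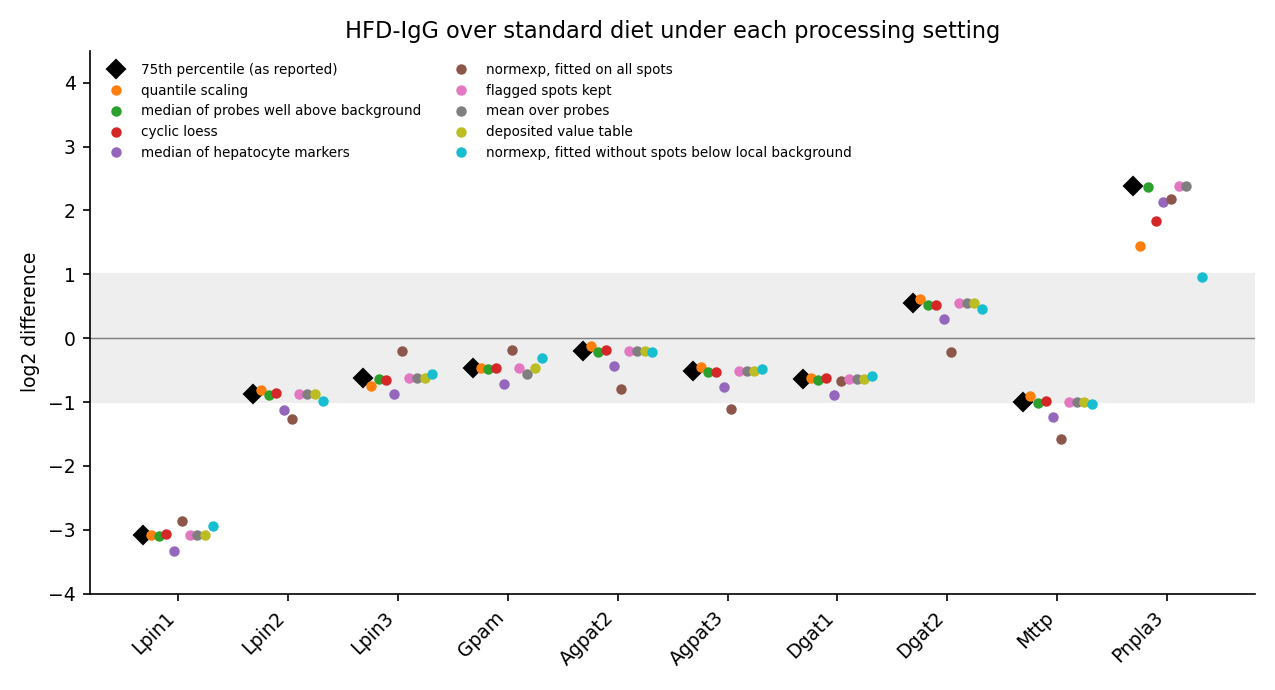
Log2 difference of HFD-IgG over standard diet (vertical axis) for each gene (horizontal axis) as reported (black diamonds) and under 9 other processings (coloured points), with shading under 2-fold. Lpin1 stays between -3.33 and -2.87, and Dgat2 falls to -0.21 with normexp fitted on all spots.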

How the data were processed

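Agilent Feature Extraction 11.0.1.1 made the scanner files, per the submitters' processing notes. Their processed intensity is background-subtracted, per the file headers, and well-above-background flags are other values set by that software, per the file headers. The deposited table is a ratio that the authors made: for 23206 spots it equals processed intensity over the array's 75th percentile within a relative deviation of 2e-08, with column medians of 0.787, 0.796 and 0.810. It holds 9 of the 10 genes, and 0 columns were left unmatched.

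Levels were log2 processed intensity minus log2 of the 75th percentile of 43020 non-control spots, which was 574, 500.3 and 514 on the standard-diet, HFD-IgG and anti-VLA-4 arrays. Well above background were 57.3%, 66.5% and 62.4% of spots, and 0 were saturated. Outlier spots were left out (117, 158 and 141, none of a triglyceride assembly probe), and repeated spots, averaged, had a median SD of 0.080, 0.109 and 0.087 on the log2 scale. A gene took its probe with the highest mean, and entered a comparison if either array had it well above background. Accessions matched RefSeq's table for 66.1% of probes, and the others kept the array's names, which can be old. 1 probe sequence is not reported here.

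The 10 genes, the lists and the settings were chosen with earlier results of these data known. Named were every member, up to 4 genes per related list with the largest difference measured on both arrays, the 5 nearest to Lpin1, and list counts. The rule also took up to 3 markers per cell type with the highest mean signal; these are given here as list sums. With 1 array per group, at least 2-fold replaced a test. The steps were tested on simulated arrays. Alternatives were other scalings, normexp (offset 50), flagged spots kept, probe means, 1.5-fold and the deposited table. After seeing the data, normexp refitted without spots dimmer than local background and genes of like purine content were added. In the fit on all spots, 4 such spots with HFD-IgG and 1 with anti-VLA-4 put the fitted background mean at -335 and -198, against 16.3 and 11.1 without them. Software was limma 3.58.1 in R 4.3.3 and, in Python 3.11.15, numpy 2.4.6, pandas 2.3.3 and matplotlib 3.10.9.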

Additional observations from a re-analysis of the deposited data

How the results depend on the processing

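Of the 29 differences of the 10 genes, 27 kept their sign in every alternative run. Keeping outlier spots and the deposited table, which holds the same ratio, could not change these signs. Probe means could change only genes with a pair of probes. The exceptions were Dgat2 in HFD-IgG over standard diet and Agpat2 in anti-VLA-4 over standard diet. The Lpin1 difference of HFD-IgG over standard diet, -3.08, was -3.33 scaled on hepatocyte markers and -2.87 with normexp fitted on all spots. The count of genes at least 2-fold higher in HFD-IgG over standard diet went from 1 to 0 in the deposited table, which does not hold Pnpla3, and to 0 with normexp refitted. The count of lower genes there went from 1 to 2 scaled on probes well above background, 3 scaled on hepatocyte markers, 4 with normexp fitted on all spots, 2 with normexp refitted and 5 at 1.5-fold; Mttp joined Lpin1 in each, Lpin2 in those of 3 or more, and Agpat3 where there were 4 genes. In anti-VLA-4 over HFD-IgG the count of lower genes went from 1 to 0 with either normexp fit and in the deposited table, and the count of higher genes from 0 to 1 at 1.5-fold. In anti-VLA-4 over standard diet the count of lower genes went from 1 to 2 with normexp fitted on all spots and to 2 at 1.5-fold, and the count of higher genes from 0 to 1 at 1.5-fold. Apart from the deposited table, whose row list is the cause, and the fold changed by construction, the cause was not tested.

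Over all genes, those at least 2-fold higher in HFD-IgG over standard diet numbered 4498, and 2431 after quantile scaling; those lower numbered 531, and 2687 after quantile scaling. Scaling on the median level of hepatocyte markers shifted all genes by -0.25, 0.15 and -0.10 in the comparisons in the order above. The median of the markers' own differences, another measure, was 0.05, 0.10 and -0.12. No replicate could be left out with 1 array per group, and no paired analysis was possible because no group has a replicate. Signals near the lowest well above background, 14.8, 15.8 and 11.5 on the 3 arrays, bound what can be said of Pnpla3 and of the other Lpin1 probe.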
